A study of Mus musculus with 9 samples.

Results

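Heat shock proteins and their DnaJ co-chaperones were compared between kidneys of Bmal1 knockout mice and wild-type mice. The rule took every symbol that starts with Hspa, Hspb, Hsp90, Hspd1, Hspe1, Hsph1 or Dnaj, and found 74 of the 23282 symbols in the tables. Of these 74, 29 were heat shock symbols and 45 were DnaJ symbols. The prefix also admits Hspbp1 and Hspbap1, whose products bind heat shock proteins, and Hspb11, an intraflagellar transport subunit.

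The series holds 5 Bmal1 KO libraries (genotype Bmal1 -/-, strain C57BL/6, kidney) and 4 WT libraries (wild type, same strain and tissue), in a study of the circadian clock in chronic kidney disease. Bmal1, whose gene symbol is Arntl, is the transcription factor that drives the circadian clock together with Clock or Npas2. RNA was read by QuantSeq 3′ mRNA sequencing, which counts about 1 tag per transcript near its 3′ end, so that levels of different genes need no length correction. The labels do not state the hour of sampling, sex, age or the part of Bmal1 that was deleted. They also do not say that libraries are separate animals, so p-values rest on library-to-library spread alone, which may be technical. Each deposited value is log2(x + 1), where x is a count of reads after an adjustment by the authors that brought library sizes close together. Adjusted totals were 11765219 to 13486444 per library, and the raw depth is unknown. All values below are in the order KO 1 to 5 and WT 1 to 4.

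Chaperones keep other proteins folded. Hsp70 proteins bind exposed stretches of unfolded chains in a cycle driven by ATP; DnaJ proteins, also called Hsp40, deliver clients and trigger ATP hydrolysis, and nucleotide exchange factors of the Hsp110 type reset the cycle. Hsp90 acts later, on kinases and steroid receptors among others, the mitochondrial Hsp60 and Hsp10 form a folding chamber, and small heat shock proteins hold unfolding proteins until Hsp70 takes them over. Heat, oxidants and, in the renal medulla, high salt and urea raise the inducible members through the factor Hsf1 and other factors. In mouse liver, heat shock genes cycle over the day with body temperature.

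The promoters of 60 of the 74 genes were found in RefSeq (build GRCm38.p6), with 1 window or more of 250 bases before each annotated start. They were searched on both strands for the heat shock element, the site of Hsf1, as 2 units (GAANNTTC or TTCNNGAA) or 3 units, in which a further GAA or TTC follows in alternation after any 2 bases. The 3-unit form holds overlapping 2-unit matches. A 2-unit match lay before 14 of the 60 genes (23.3%), against 14.5% of all 27025 genes with a promoter and 12.3% of the 10190 tested genes with one. By class it lay in 6 of 7 inducible cytosolic genes with a promoter, 2 of 5 mitochondrial, 3 of 19 constitutive cytosolic, 2 of 5 small heat shock and 1 of 10 ER genes. The 4 windows below are shown because Hspa1a and Hspb1 are inducible genes that rose in KO and Hspa1b, which had no call, is the near copy of Hspa1a, while Hspd1, which fell in KO, is the head-to-head neighbour of Hspe1. Capitals mark the heat shock element.
Hspa1a (chr17:34972157-34972406, - strand): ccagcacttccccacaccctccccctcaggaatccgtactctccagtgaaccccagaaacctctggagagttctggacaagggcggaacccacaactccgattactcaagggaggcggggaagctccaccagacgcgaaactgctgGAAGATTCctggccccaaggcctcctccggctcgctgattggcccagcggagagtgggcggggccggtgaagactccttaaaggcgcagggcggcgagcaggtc
Hspa1b (chr17:34959239-34959488, - strand): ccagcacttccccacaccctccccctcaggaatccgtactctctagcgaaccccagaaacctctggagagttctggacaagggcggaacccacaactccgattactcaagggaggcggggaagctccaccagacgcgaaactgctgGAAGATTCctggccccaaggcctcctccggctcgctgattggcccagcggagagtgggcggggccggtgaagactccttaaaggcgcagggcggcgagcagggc
Hspb1 (chr5:135887669-135887918, + strand): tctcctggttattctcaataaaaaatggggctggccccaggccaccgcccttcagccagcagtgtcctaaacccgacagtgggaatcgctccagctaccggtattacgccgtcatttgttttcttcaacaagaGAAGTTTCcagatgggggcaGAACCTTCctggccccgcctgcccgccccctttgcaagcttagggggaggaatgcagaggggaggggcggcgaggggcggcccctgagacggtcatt
Hspe1 (chr1:55087898-55088147, + strand): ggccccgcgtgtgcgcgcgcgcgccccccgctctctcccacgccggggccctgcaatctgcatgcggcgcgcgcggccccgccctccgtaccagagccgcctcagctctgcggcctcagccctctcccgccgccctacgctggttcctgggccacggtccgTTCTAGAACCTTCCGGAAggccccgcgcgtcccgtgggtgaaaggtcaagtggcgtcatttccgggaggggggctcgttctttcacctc

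The Hspa1a and Hspa1b windows hold the same base at 247 of 250 positions, with 1 match whose first base lies 104 bases before the start in each. Hspb1 has 2 matches, which begin 117 and 97 bases before its start. The Hspe1 window has a run of 3 overlapping matches, including both 3-unit forms, which occur in 0.466% of all windows. Hspd1 is read from the other strand, and the window before another of its RefSeq starts (chr1:55087933-55088182, - strand) holds the same run. An E-box of the form CACGTG, the kind of site that Bmal1 with Clock binds, lay before 6 of the 60 genes (10%), against 6.86% of all genes and 9.75% of tested genes with a promoter. Of the 12 called genes with a promoter, it was found before Hspd1, 80 bases ahead of 1 of its starts. These matches describe letters in a window and say nothing of binding.

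Of the 74 genes, 66 were tested, having x of at least 10 in 4 or more libraries; 62 of them reached that level in all 9. Not tested were Hspb7, Hspb9, Hspb3, Dnajb7, Dnajc5b, Dnajc5g, Dnajb8 and Dnajb13, of which Hspb3, Dnajc5g, Dnajb8 and Dnajb13 were listed at 0 in every library. Just inside the filter, Hspa1l, a relative of Hsp70 best known from testis, had log2 values of 4.21, 3.49, 3.18, 4.37 and 2.75 in Bmal1 KO, against 1.84, 1.10, 4.22 and 2.65 in WT, and reached the filter in 3 KO and 1 WT libraries. Its log2 difference was 1.15 (SE 0.67, adjusted p = 0.286), 0.70 without WT 2 and 1.74 without WT 3. Just outside it was Hspb7, a small heat shock protein of heart muscle, with 3.35, 2.71, 3.18, 3.30 and 3.90 in Bmal1 KO, against 0.22, 2.39, 3.15 and 2.07 in WT. The targeted gene Arntl had log2 values of 5.95, 5.65, 5.99, 5.80 and 5.86 in Bmal1 KO, against 6.68, 6.26, 7.06 and 6.76 in WT (log2 difference -0.84, adjusted p = 0.0112, and 0.0552 without WT 3), though a 3′ tag outside the deleted part would check nothing.

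Across the 66 tested genes 5 rose in knockout kidney and 11 fell (limma, Benjamini-Hochberg adjusted p under 0.05 over all 13481 rows tested). The 5 that rose were the inducible Hsp70 gene Hspa1a, the small heat shock gene Hspb1, Dnajb4, Hspa2 and Dnajc7. Those that fell were Dnajc6, Dnajc22, Hspb6, Dnajc13, Hspd1, Dnajc2, Dnajb11, Dnajb12, Hspa4, Hsp90aa1 and Hsp90ab1. The share called was 24.2% of the tested genes, against 14.4% of all rows. Higher calls made up 7.58% of the tested genes and 6.16% of all rows, which is near the background, and lower calls 16.7% of the tested genes and 8.2% of all rows. The median log2 difference was -0.0893 over the 66 genes and 0.0002 over all rows.

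Abundant rows of any kind were called more often, as a split chosen after the values were seen showed. Among the 22 tested genes with a mean log2 value of at least 10, 31.8% were called, 27.3% lower and 4.55% higher. Of the 2202 rows at that level 26% were called, 18.4% lower and 7.58% higher. Among the 44 below it, 20.5% were called, 11.4% lower and 9.09% higher, against 12.1%, 6.21% and 5.89% of the 11279 rows there. All 5 KO libraries lay above every WT library in 4 tested genes and below in 8, or 12 of 66, against 14.3% of all rows in either direction (5.86% above and 8.46% below).

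**Figure D1:**
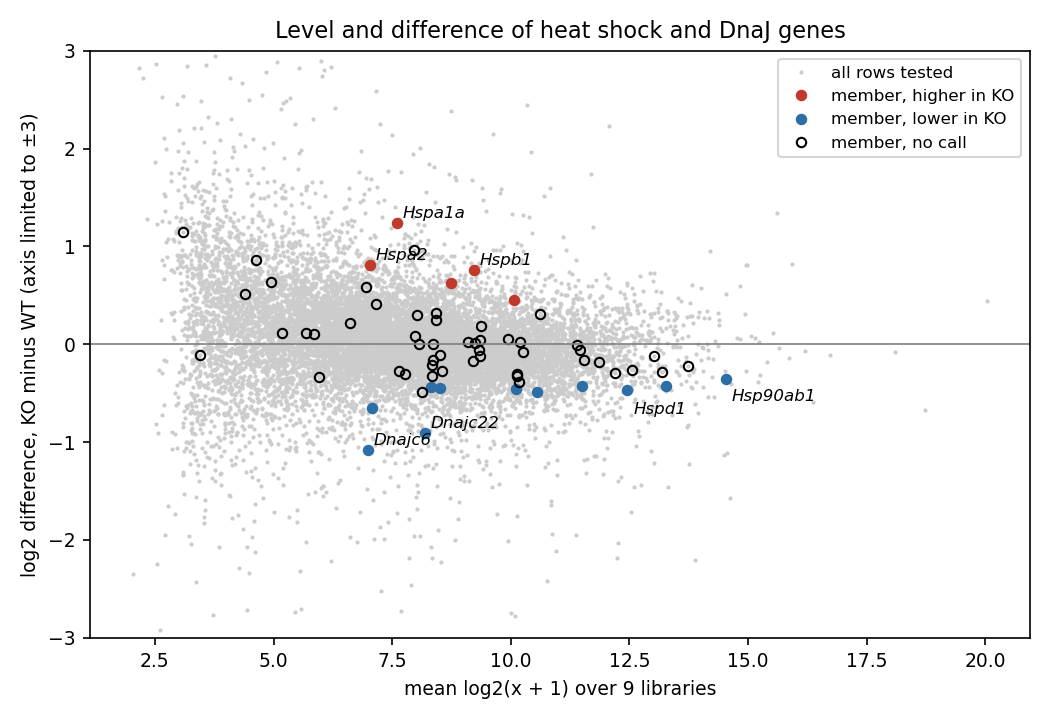
The log2 difference of KO minus WT (vertical axis, limited to ±3) is plotted against the mean log2(x + 1) over 9 libraries (horizontal axis) for all rows tested in grey and for the 66 heat shock and DnaJ genes as circles, filled where past the threshold. All 3 filled points with a mean above 12 are lower in KO (Hsp90ab1, Hsp90aa1 and Hspd1), while Hspa1a, Hspa2 and Hspb1 are higher in KO at lower levels.

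The count of lower genes depended on scaling and on single libraries. The 5 higher and 11 lower genes became 6 and 5 after quantile normalization, 7 and 6 with upper-quartile scaling, 6 and 4 with x rescaled to the library total, and 8 and 3 with that total taken without Rn45s, the ribosomal RNA precursor. Lower calls then made up 7.58% of the tested genes and 6.45% of all rows with quantile normalization, 9.09% and 6.02% with upper-quartile scaling, 6.06% and 5.61% with the library total, and 4.55% and 5.16% with the total without Rn45s. Under those scalings the share of lower calls was thus closer to that of all rows, and below it in the last, which moved the median of all rows to 0.105. Rn45s took 6.83% to 14.4% of adjusted reads in KO and 5.07% to 11.3% in WT, and its part in the lower calls was not tested beyond these settings and the covariate, with which 4 rose and 3 fell. The lower count was 7 without KO 1, 10 without KO 2, 4 without KO 3 or KO 4, and 6 without KO 5. It was 6 without WT 1, 13 without WT 2, and 5 without WT 3 or WT 4. Lower calls then made up 6.06% of the tested genes and 6.37% of all rows without KO 3, and 6.06% and 6.33% without KO 4. These shares were 10.6% and 8.47% without KO 1, 15.2% and 6.54% without KO 2, and 9.09% and 7.1% without KO 5. They were 9.09% and 6.36% without WT 1, 19.7% and 9.39% without WT 2, 7.58% and 6.13% without WT 3, and 7.58% and 6.05% without WT 4. Leaving out both WT 2 and KO 4, the libraries with the most globin reads, gave 5 higher and 10 lower. The lower share was then 15.2% of the tested genes and 7.78% of all rows. Directions below are on the deposited scaling. Dnajb4 and Hspa2 (higher), and Dnajc6, Dnajc22 and Hspd1 (lower), passed the threshold in the same direction under all 21 alternatives.

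**Figure D2:**
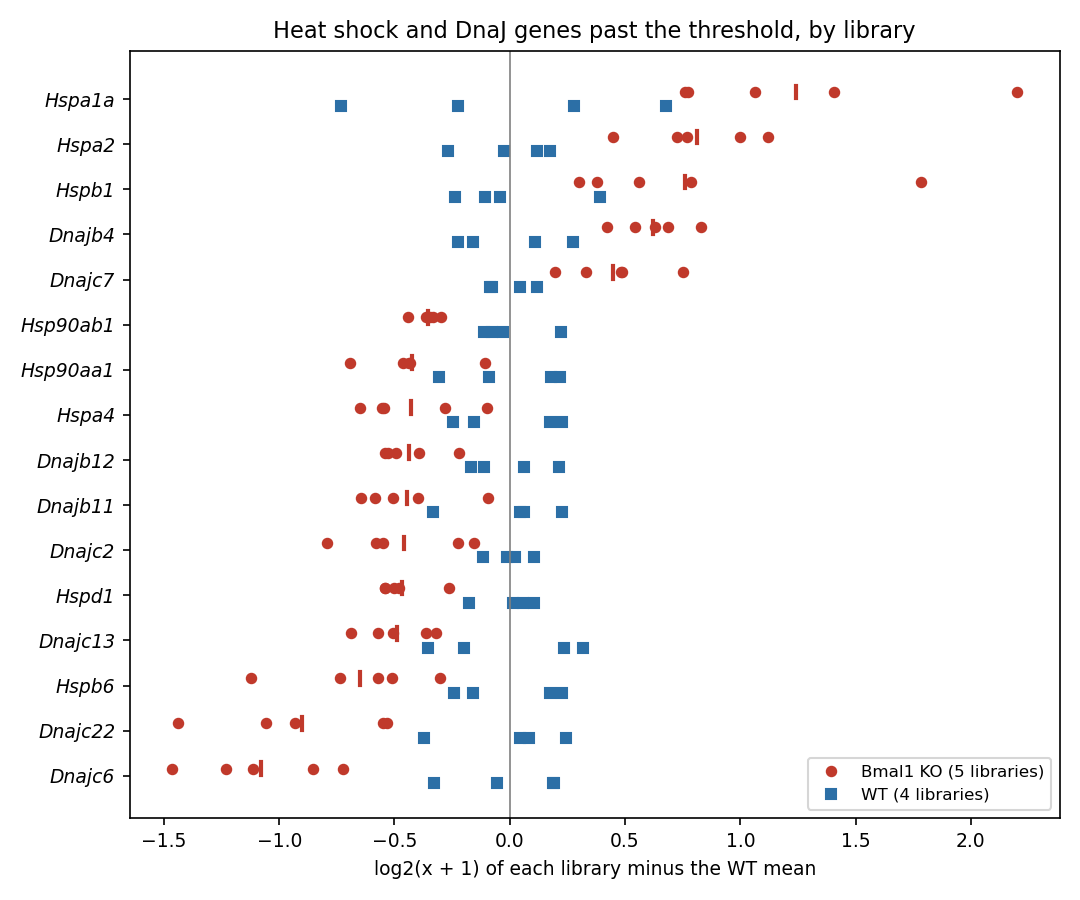
Each row is a gene past the threshold; the horizontal axis is log2(x + 1) of each library minus the WT mean, with KO libraries as red circles, WT libraries as blue squares and a red bar at the KO mean. KO and WT points are apart for 11 of the 16 genes and overlap for Hspb1, Hsp90aa1, Hspa4, Dnajb11 and Dnajc13. Over all rows tested, 14.3% were apart. The 16 genes were chosen by their difference in these same libraries, so the separation adds no further evidence.

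The inducible cytosolic class did not move as a block. Of its 8 genes, 3 rose (Hspa1a, Dnajb4 and Hspb1), Hsp90aa1 fell, and 4 had no call (Hspa1b, Dnajb1, Hsph1 and Dnaja1). Higher calls made up 37.5% of the class and 6.16% of all rows, and lower calls 12.5% and 8.2%. The median log2 difference of the class was 0.407. Hspa1a, the stress-inducible Hsp70 (chromosome 17, 34969190 to 34972156, - strand, GRCm38), had log2 values of 7.69, 7.68, 7.98, 8.32 and 9.12 in Bmal1 KO, against 6.69, 6.19, 7.59 and 7.19 in WT. All KO libraries lay above all WT libraries, by 2.36-fold on average (log2 difference 1.24, SE 0.29, adjusted p = 0.00650). KO 5 was highest and WT 2 lowest. Without KO 5 the log2 difference was 1.00 (adjusted p = 0.0145), and the call was lost without a variance trend (adjusted p = 0.0575). An exon of the gene Gm20481 on the opposite strand overlaps Hspa1a, and strand use in counting is not given in the sources used here, so its reads may be mixed.

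Hspa1b, the second copy of inducible Hsp70, had log2 values of 7.87, 8.30, 7.82, 8.17 and 9.74 in Bmal1 KO, against 6.50, 7.24, 8.09 and 7.83 in WT. KO 5 again stood highest, WT 3 and WT 4 lay within the KO range, and the difference had no call (log2 difference 0.97, SE 0.34, adjusted p = 0.0666). It passed on leaving out KO 1 or WT 3 (adjusted p = 0.0466 without KO 1 and 0.0343 without WT 3), and without KO 5 the difference was 0.63 (adjusted p = 0.138). Hspa1b also passed at an adjusted p of 0.048 with the total without Rn45s and 0.046 with upper-quartile scaling. The 2 genes encode near-identical proteins, but the last 300 bases of their longest annotated transcripts share no stretch of 50 bases with another gene's transcript, so 3′ tags of that length can be told apart. Together they took 0.00362% to 0.012% of adjusted reads in KO, against 0.00151% to 0.00374% in WT.

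Hspb1, known in mouse as Hsp25, holds unfolding proteins and steadies actin filaments (chromosome 5, 135887919 to 135889563, + strand). Its log2 values were 9.11, 9.37, 9.19, 9.59 and 10.59 in Bmal1 KO, against 8.57, 9.20, 8.76 and 8.70 in WT. WT 2 overlapped the KO range, and KO 5 stood highest. Hspb1 rose 1.70-fold (log2 difference 0.76, SE 0.23, adjusted p = 0.0316), with a difference of 0.51 without KO 5 (adjusted p = 0.0361). The call was lost on leaving out any of 4 libraries, with adjusted p = 0.0636 without KO 4, 0.0926 without WT 1, 0.0642 without WT 3 and 0.0783 without WT 4. It was also lost at an adjusted p of 0.0581 with no filter on low values, 0.128 with Rn45s as a covariate, 0.133 without a variance trend and 0.112 with a robust prior. A pseudogene, Hsp25-ps1, shares 19.1% of the 50-base stretches in the last 300 bases of Hspb1.

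Dnajb4, a J-domain partner of Hsp70 (chromosome 3, 152178511 to 152210302, - strand), separated the genotypes in every library. Log2 values were 8.81, 9.08, 9.02, 9.22 and 8.93 in Bmal1 KO, against 8.17, 8.23, 8.50 and 8.66 in WT (log2 difference 0.62, SE 0.13, adjusted p = 0.00358). Its better known relative Dnajb1, the main Hsp40 of heat-stressed cells, had 9.32, 9.56, 9.33, 9.48 and 9.65 in Bmal1 KO, against 9.02, 9.24, 9.56 and 9.29 in WT, with the genotypes overlapping (log2 difference 0.19, SE 0.12, adjusted p = 0.343). Without WT 1 the Dnajb1 difference was 0.10, and 0.29 without WT 3. Both Dnajb1 and Hsph1 are named here with their values known.

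The other 3 inducible genes had differences below 0. Hsp90aa1, the inducible Hsp90, had log2 values of 13.08, 13.41, 12.83, 13.09 and 13.06 in Bmal1 KO, against 13.43, 13.21, 13.74 and 13.70 in WT and fell by 0.43 (SE 0.13, adjusted p = 0.0386); KO 2 lay within the WT range. Its call was lost on leaving out any of 7 libraries (adjusted p = 0.0564 without KO 1, 0.109 without KO 3, 0.0753 without KO 4, 0.0705 without KO 5, 0.0548 without WT 1, 0.118 without WT 3 and 0.125 without WT 4) and under every other scaling. Hsph1, the Hsp110 exchange factor, had 10.08, 9.93, 9.46, 9.75 and 10.75 in Bmal1 KO, against 10.14, 9.88, 10.78 and 10.73 in WT, so that KO 5 lay with WT 3 and WT 4 and far from the other KO libraries. Its log2 difference of -0.39 (SE 0.22) had no call (adjusted p = 0.262; -0.58 and 0.0492 without KO 5), and it was -0.25 without KO 3 and -0.26 without WT 3. Dnaja1, a farnesylated J-domain partner of Hsp70, had 12.11, 12.23, 11.84, 12.09 and 12.11 in Bmal1 KO, against 12.34, 12.27, 12.37 and 12.48 in WT; the genotypes did not overlap, but the difference of -0.29 had no call (adjusted p = 0.0629, and 0.0471 without WT 2). The longest Dnaja1 transcript ends inside the gene Smu1 on the opposite strand, so its reads may be mixed.

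**Figure D3:**
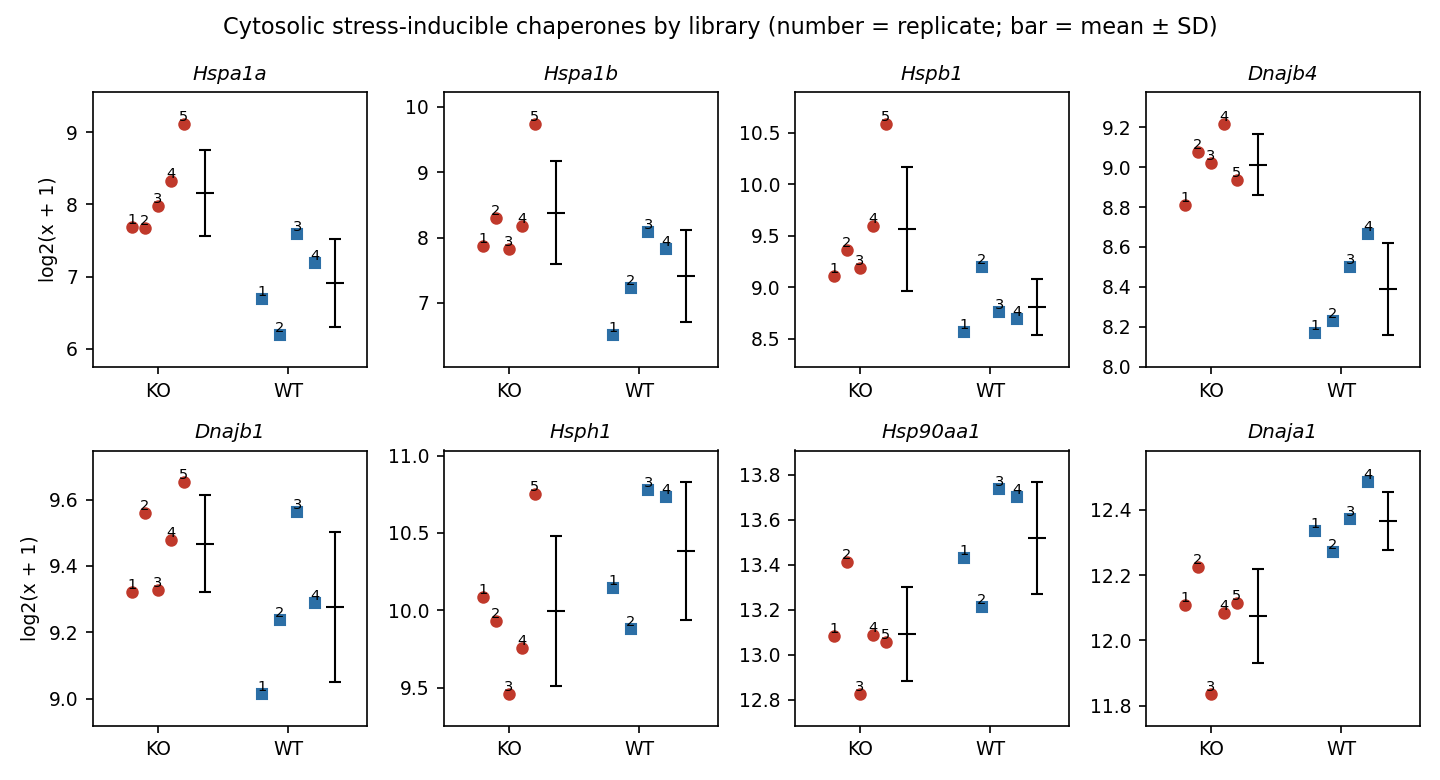
Log2(x + 1) of the 8 inducible cytosolic genes is shown for each KO library (red circles, left) and WT library (blue squares, right), numbered by replicate, with the mean ± SD beside them and a separate vertical scale per gene. KO 5 is highest of its genotype for Hspa1a, Hspa1b, Hspb1, Dnajb1 and Hsph1, and WT 3 is highest of its genotype for Hspa1a, Hspa1b, Dnajb1, Hsph1 and Hsp90aa1.

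Single libraries stood out in the inducible genes. KO 5 was the highest KO library for 5 of the 8, and WT 3 the highest WT library for 5 of the 8, while over all rows KO 5 was highest in 21.9% and WT 3 in 25.7%. None of the 8 was lowest in KO 4, KO 5, WT 3 or WT 4. Within genotype the median SD of the 8 was 0.345 in KO and 0.260 in WT, against 0.225 in KO and 0.254 in WT over all rows.

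Some markers of the renal medulla and its osmotic response rose along with Hspa1a and Hspb1. Of 11 such genes, all tested, 4 rose, or 36.4% against 6.16% of all rows, and none fell (median log2 difference 0.425). Differences were above 0 for 9 genes and below 0 for 2, Aqp4 (-0.40) and Aqp3 (-0.24). The 7 with no call included the osmotic response genes Slc5a3 (0.35), Nfat5 (0.23) and Akr1b3 (0.21). Akr1b3 stood at 10.3 in KO 5, while 3 KO libraries lay below all WT libraries. Its KO median of 8.05 was below the WT median of 8.12. The 4 that rose included Slc6a6, the taurine transporter (0.63, SE 0.11), and Fxyd4 of the collecting duct (0.77, SE 0.14). The others were Slc6a12, the betaine transporter (1.46, SE 0.45, at the filter in 5 KO and 2 WT libraries), and the water channel Aqp2 (0.66, SE 0.21). As Slc6a12 passed the filter through its KO levels, the count of 4 and its share are a description only. Slc6a12 did not pass on leaving out any of 6 libraries (adjusted p = 0.0750 without KO 1, 0.0910 without KO 3, 0.0654 without KO 4, 0.0636 without KO 5, 0.0650 without WT 2 and 0.0916 without WT 4), nor Aqp2 on leaving out any of 3 (adjusted p = 0.0706 without KO 4, 0.104 without WT 1 and 0.0860 without WT 4); without KO 5 the Aqp2 difference was 0.42. Aqp2 was also lost at an adjusted p of 0.0702 with no filter on low values, 0.0584 with Rn45s as a covariate, 0.152 without a variance trend and 0.132 with a robust prior. It was further lost at 0.071 without both KO 4 and WT 2 and 0.0539 with a replicate block. Slc6a12 was also lost at 0.0969 after quantile normalization and 0.0947 without both KO 4 and WT 2. The summed level of the 11 genes was 0.109% to 0.212% of adjusted reads in KO and 0.0773% to 0.107% in WT, with KO 5 highest, and none was at 0. Cryab, the αB-crystallin of the same small heat shock family, had log2 values of 10.99, 10.75, 10.41, 10.53 and 12.17 in Bmal1 KO, against 10.59, 10.42, 10.31 and 10.15 in WT and no call (adjusted p = 0.115), again with KO 5 highest. Immediate early genes such as Fos and Egr1 summed to 0.0128% to 0.0386% in KO and 0.00572% to 0.0394% in WT, with no gene of 7 called by limma and 3 higher at an unadjusted p under 0.05. Urothelial markers, of the lining of the renal pelvis beside the papilla, included Upk1a, which rose by 2.06 (SE 0.34). Of 6 such markers 5 were tested and 4 called higher, but Krt15 reached the filter in 5 KO and 0 WT libraries and Upk1b in 5 KO and 1 WT, so these passed through their KO levels and the count is a description only. The 6 markers had a sum of 0.00122% to 0.00366% in KO, KO 5 again highest, and 0.000309% to 0.000667% in WT. The part of the medullary, urothelial and early genes in these increases was not tested. In whole kidney RNA, a change in the number of cells of a type and a change in RNA per cell cannot be told apart.

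Of the 23 constitutive cytosolic genes, all tested, Hspa2 and Dnajc7 rose, 5 fell and 16 had no call, with a median log2 difference of 0.00645. Higher calls made up 8.7% of the class and 6.16% of all rows, and lower calls 21.7% and 8.2%. Hspa8, the Hsc70 that every cell uses, had log2 values of 13.18, 12.81, 12.88, 12.83 and 13.09 in Bmal1 KO, against 12.93, 12.89, 13.23 and 13.27 in WT and overlapping genotypes (log2 difference -0.12, SE 0.12, adjusted p = 0.553). This difference was -0.18 without WT 2, -0.07 without WT 3 and -0.06 without WT 4, and 0.03 with quantile normalization. Hspa8 has many processed pseudogenes, and 82.5% of the 50-base stretches in its last 300 bases occur in another gene's transcript. Set against Hspa8 within each library, which removes scaling, Hspa1a was at log2 values of -5.49 to -3.97 in KO and -6.71 to -5.64 in WT, and the genotypes did not overlap. Hspb1 minus Hspa8 was -4.08 to -2.50 in KO and -4.57 to -3.70 in WT, with an overlap, and Hspa1b minus Hspa8 was -5.31 to -3.35 in KO and -6.43 to -5.14 in WT, also with an overlap.

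Hspa2, an Hsp70 best known from male germ cells (chromosome 12, 76404176 to 76406938, + strand), was higher in every KO library. Log2 values were 7.70, 7.35, 7.30, 7.03 and 7.57 in Bmal1 KO, against 6.75, 6.55, 6.31 and 6.69 in WT, a 1.76-fold increase (log2 difference 0.81, SE 0.18, adjusted p = 0.00472). Hspa2 minus Hspa8 within each library was -5.81 to -5.46 in KO and -6.92 to -6.18 in WT. Dnajc7, which carries both a J domain and repeats that bind Hsp70 and Hsp90 (chromosome 11, 100582818 to 100620168, - strand), had 10.01, 10.29, 10.56, 10.30 and 10.14 in Bmal1 KO, against 9.73, 9.93, 9.85 and 9.72 in WT (log2 difference 0.45, SE 0.11, adjusted p = 0.0130). KO lay above WT in each library, although exons of Cnp and Nkiras2 on the opposite strand overlap Dnajc7. Dnajc7 did not pass at an adjusted p of 0.0982 with Rn45s as a covariate and 0.0547 without a variance trend.

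The largest decreases were those of Dnajc6 and Dnajc22. Dnajc6 encodes auxilin, the neuronal J protein that recruits Hsc70 to strip clathrin from vesicles (chromosome 4, 101496648 to 101642799, + strand), and had log2 values of 6.86, 6.73, 6.12, 6.35 and 6.47 in Bmal1 KO, against 7.78, 7.25, 7.53 and 7.77 in WT. Every KO library lay below every WT library, 2.11-fold lower on average (log2 difference -1.08, SE 0.19, adjusted p = 0.000786). Dnajc22, whose Drosophila counterpart wurst takes part in clathrin-mediated endocytosis, sits among the genes with no assigned class (chromosome 15, 99093170 to 99104737, + strand). Its log2 values were 7.76, 8.16, 7.64, 8.14 and 7.25 in Bmal1 KO, against 8.94, 8.74, 8.32 and 8.78 in WT (log2 difference -0.90, SE 0.18, adjusted p = 0.00245), again with no overlap. Dnajc13, a J protein of endosomes, had 10.51, 10.47, 10.32, 10.14 and 10.26 in Bmal1 KO, against 10.63, 10.47, 11.15 and 11.07 in WT; KO 1 lay within the WT range, and WT 3 and WT 4 stood above the other WT libraries. Dnajc13 fell by 0.49 (SE 0.13, adjusted p = 0.0202), and did not pass on leaving out any of 3 libraries (adjusted p = 0.0583 without KO 4, 0.0788 without WT 3 and 0.0802 without WT 4), nor at an adjusted p of 0.0660 with the library total, 0.0712 with the total without Rn45s, 0.142 with Rn45s as a covariate and 0.0890 without a variance trend.

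Proximal tubule cells are rich in clathrin-mediated uptake. Of 9 of their markers tested 2 fell, Ggt1 (-0.89, SE 0.10) and Slc13a3 (-0.96, SE 0.13), and none rose. That was 22.2% lower, against 8.2% of all rows. Differences were below 0 for 6 markers and above 0 for 3, Aqp1 (0.17), Slc5a2 (0.08) and Slc5a12 (0.04). The uptake receptors Lrp2 (-0.62, adjusted p = 0.0735) and Cubn (-0.39, adjusted p = 0.160) had no call. The sum of the 9 markers, carried mostly by the abundant Kap, was 3.39% to 3.59% of adjusted reads in KO and 4.52% to 5.72% in WT. No marker was at 0. The part of these markers in the decrease of Dnajc6, Dnajc22 and Dnajc13 was not tested.

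Hsp90ab1, the constitutive Hsp90 and the most abundant of the 74 genes, had log2 values of 14.37, 14.38, 14.29, 14.40 and 14.43 in Bmal1 KO, against 14.62, 14.65, 14.95 and 14.70 in WT. All KO libraries lay below all WT libraries by a small margin, 1.28-fold on average (log2 difference -0.36, SE 0.11, adjusted p = 0.0444). The call was lost on leaving out any library but WT 2 (adjusted p = 0.0610 without KO 1, 0.0769 without KO 2, 0.107 without KO 3, 0.0780 without KO 4, 0.0629 without KO 5, 0.0525 without WT 1, 0.140 without WT 3 and 0.0892 without WT 4) and under each of the other 4 scalings, so it stood at the edge of the threshold. Within each library Hsp90aa1 minus Hsp90ab1 was -1.46 to -0.971 in KO and -1.44 to -0.999 in WT, with overlapping genotypes. Hspa4, an Hsp110-type exchange factor, had 11.65, 11.47, 11.19, 11.10 and 11.20 in Bmal1 KO, against 11.59, 11.50, 11.97 and 11.92 in WT and fell by 0.43 (SE 0.13, adjusted p = 0.0340), with KO 1 within the WT range. Its call was lost on leaving out any of 5 libraries (adjusted p = 0.0846 without KO 3, 0.0933 without KO 4, 0.0732 without KO 5, 0.112 without WT 3 and 0.112 without WT 4). It was also lost at an adjusted p of 0.0547 with no filter on low values, 0.116 after quantile normalization, 0.101 with the library total, 0.108 with the total without Rn45s, 0.0664 with upper-quartile scaling, 0.222 with Rn45s as a covariate and 0.117 without a variance trend. Dnajc2, a J protein that works at the ribosome, had 10.14, 10.21, 9.82, 9.79 and 9.58 in Bmal1 KO, against 10.25, 10.35, 10.39 and 10.47 in WT and no overlap (log2 difference -0.46, SE 0.13, adjusted p = 0.0198), and was lost on leaving out any of 4 libraries (adjusted p = 0.0509 without KO 3, 0.0526 without KO 4, 0.0507 without KO 5 and 0.0647 without WT 4), and at an adjusted p of 0.0568 after quantile normalization, 0.0630 with the total without Rn45s, 0.0762 with Rn45s as a covariate, 0.0784 without a variance trend and 0.0599 without both KO 4 and WT 2.

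**Figure D4:**
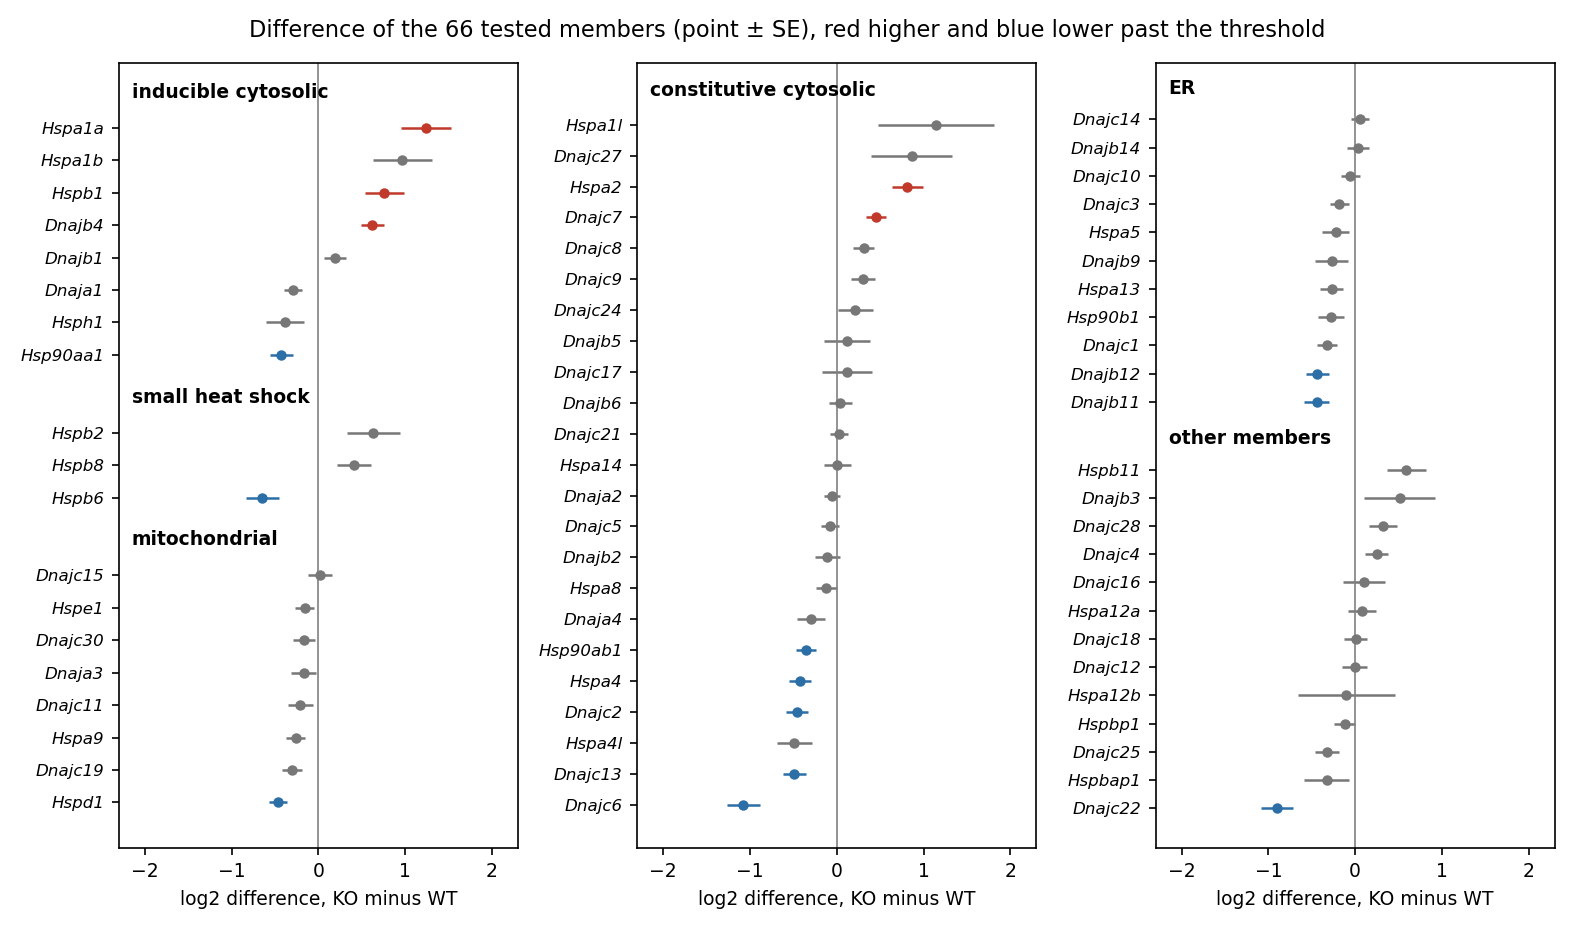
The log2 difference of KO minus WT is drawn with its SE for each of the 66 tested genes, grouped by class and ordered by size, with genes past the threshold in red (higher) or blue (lower) and the others in grey. Inducible genes spread to both sides of 0, whereas 9 of 11 ER genes and 7 of 8 mitochondrial genes lie below 0.

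Among genes of the endoplasmic reticulum the J proteins Dnajb12 and Dnajb11 fell. These were 2 of 11, all tested, or 18.2% against 8.2% of all rows, and none rose, near the 6.16% of all rows that did (limma; at an unadjusted p under 0.05, 4 were lower and none higher), with a median log2 difference of -0.271. Dnajb11, the ERdj3 partner of BiP, had log2 values of 8.25, 8.66, 8.17, 8.11 and 8.36 in Bmal1 KO, against 8.98, 8.42, 8.82 and 8.80 in WT (log2 difference -0.45, SE 0.14, adjusted p = 0.0472), and KO 2 lay within the WT range. Dnajb12, a J protein of the reticulum membrane, had 8.03, 8.01, 8.16, 8.34 and 8.06 in Bmal1 KO, against 8.77, 8.45, 8.62 and 8.39 in WT (log2 difference -0.44, SE 0.13, adjusted p = 0.0306) and no overlap. Neither was stable: Dnajb11 did not pass on leaving out any of 7 libraries (adjusted p = 0.0786 without KO 1, 0.105 without KO 3, 0.111 without KO 4, 0.0680 without KO 5, 0.144 without WT 1, 0.105 without WT 3 and 0.107 without WT 4), nor Dnajb12 on leaving out any of 6 (adjusted p = 0.0586 without KO 1, 0.0705 without KO 2, 0.0534 without KO 3, 0.0595 without KO 5, 0.103 without WT 1 and 0.0790 without WT 3), nor either with any of the other 4 scalings.

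The 2 most abundant ER chaperones had no call. Hspa5, which is BiP, had 13.68, 13.82, 13.43, 13.43 and 13.81 in Bmal1 KO, against 13.62, 13.46, 14.16 and 14.22 in WT (log2 difference -0.23, SE 0.16, adjusted p = 0.377). WT 3 and WT 4 lay above every other library. KO 1, KO 2 and KO 5 lay between WT 1 and WT 3, and KO 3 and KO 4 just below WT 2, the lowest WT library. The Hspa5 difference was -0.36 without WT 2, -0.13 without WT 3 and -0.11 without WT 4. Hsp90b1, the Hsp90 of the reticulum, had 13.08, 13.49, 12.70, 13.02 and 12.99 in Bmal1 KO, against 13.36, 13.01, 13.36 and 13.59 in WT (log2 difference -0.28, SE 0.14, adjusted p = 0.227). KO 2 was the highest KO library for 72.7% of the 11 ER genes, against 18.2% of all rows. The ER stress response element (CCAAT and CCACG spaced by any 9 bases, on either strand) was found before Hspa5, Hsp90b1 and Dnajc3, which are 3 of 10 ER genes with a promoter, against 0.13% of all genes with one and 0.177% of tested genes with one; none of the 3 genes had a call.

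In mitochondria the Hsp60 gene Hspd1 fell. It was the 1 gene called of 8, all tested, a share of 12.5% that is near the 14.4% of all rows called (limma; 3 lower and none higher at an unadjusted p under 0.05), and the median log2 difference was -0.189. Hspd1 (chromosome 1, 55077835 to 55088243, - strand) had log2 values of 12.45, 12.23, 12.22, 12.18 and 12.18 in Bmal1 KO, against 12.77, 12.54, 12.82 and 12.73 in WT. All KO libraries lay below all WT libraries, 1.38-fold on average (log2 difference -0.47, SE 0.10, adjusted p = 0.00411), with KO 1 above the other KO libraries. Hspe1, the Hsp10 lid of the same chamber, starts beside it and points the other way. Hspe1 had 11.48, 11.76, 11.39, 11.37 and 11.38 in Bmal1 KO, against 11.74, 11.73, 11.44 and 11.63 in WT, with overlapping genotypes and no call (log2 difference -0.16, SE 0.11, adjusted p = 0.367; named with its values known). Hspd1 minus Hspe1 within each library was 0.47 to 0.97 in KO and 0.81 to 1.38 in WT, which overlap; 43.8% of the 50-base stretches in the last 300 bases of Hspe1 occur in its pseudogenes or another transcript. Hspa9, the mitochondrial Hsp70, had 12.64, 12.37, 12.35, 12.26 and 12.59 in Bmal1 KO, against 12.74, 12.55, 12.79 and 12.75 in WT, with KO 1 and KO 5 inside the WT range and the other KO libraries below it and no call (log2 difference -0.26, SE 0.11, adjusted p = 0.112).

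Of 6 small heat shock genes other than Hspb1, 3 were tested and Hspb6 alone was called, or 33.3% against 14.4% of all rows. Hspb6, the Hsp20 of muscle (chromosome 7, 30552178 to 30555443, + strand), had log2 values of 6.92, 6.86, 6.31, 6.70 and 7.13 in Bmal1 KO, against 7.61, 7.27, 7.66 and 7.19 in WT (log2 difference -0.65, SE 0.19, adjusted p = 0.0274), and the genotypes did not overlap. The Hspb6 call was lost on leaving out any of 4 libraries (adjusted p = 0.0719 without KO 3, 0.0558 without KO 4, 0.0828 without WT 1 and 0.0909 without WT 3), and at an adjusted p of 0.0582 with the library total, 0.0624 with the total without Rn45s, 0.172 with Rn45s as a covariate and 0.0513 without a variance trend. Its exons overlap those of Lin37 and Proser3 on the opposite strand. Hspb8, which works with Bag3 in clearing damaged proteins, had 6.92, 7.09, 7.27, 7.80 and 7.67 in Bmal1 KO, against 7.13, 6.61, 6.95 and 7.05 in WT, KO 4 and KO 5 being highest (log2 difference 0.41, SE 0.20, adjusted p = 0.185). Of 7 smooth muscle and pericyte markers Rgs5 rose (0.54, SE 0.17, lost on leaving out any of 7 libraries with adjusted p = 0.0694 without KO 1, 0.0573 without KO 2, 0.0623 without KO 3, 0.109 without KO 4, 0.0959 without WT 2, 0.0955 without WT 3 and 0.0860 without WT 4) and none fell. That was 14.3% higher, against 6.16% of all rows. All 7 differences were above 0 (median 0.49), and 4 were higher at an unadjusted p under 0.05 (limma). Of those, Cnn1 reached the filter in 5 KO and 2 WT libraries, so it passed through its KO levels. The sum of the 7 markers was 0.011% to 0.0138% of adjusted reads in KO and 0.00793% to 0.0108% in WT. Skeletal muscle markers summed to at most 0.000687% in any library.

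The remaining 18 genes have no assigned class. Of these, 13 were tested and Dnajc22 was the only one called, or 7.69% against 14.4% of all rows. The log2 differences of the other 12 lay between -0.33 and 0.59. Highest was Hspb11, which spanned 7.03 to 7.76 in KO and 6.15 to 7.32 in WT and had no call (log2 difference 0.59, SE 0.23, adjusted p = 0.0934). It passed at an adjusted p of 0.0175 without WT 1 and 0.045 with the total without Rn45s.

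**Figure D5:**
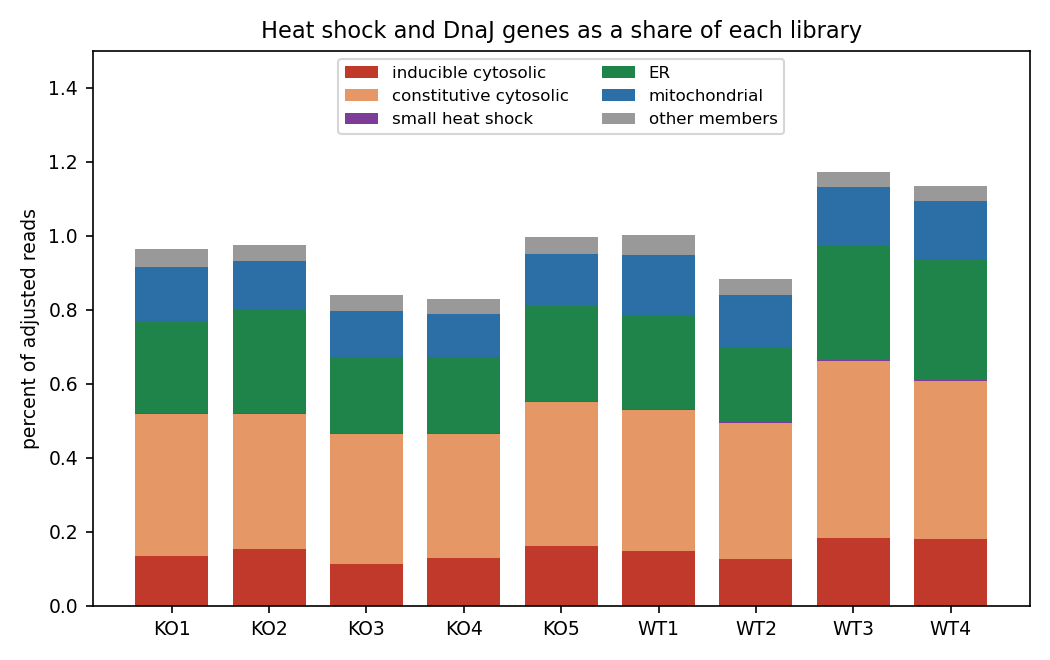
Stacked bars give the summed x of each class as a percent of the library's adjusted reads, KO libraries left and WT libraries right; the small heat shock class is too thin to see. The total runs from 0.83% to 0.995% in KO and from 0.883% to 1.17% in WT, with WT 3 and WT 4 highest.

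In all, the 74 genes took 0.921% ± 0.0797 (SD, n = 5) of adjusted reads in KO and 1.05% ± 0.132 (SD, n = 4) in WT, and the ranges overlapped. The constitutive class was the largest part, with 0.337% to 0.39% in KO and 0.368% to 0.478% in WT, followed by the ER class with 0.204% to 0.279% in KO and 0.204% to 0.324% in WT. KO 4 and WT 2, which held the smallest share in their genotype, also held the most Rn45s (14.4% in KO 4 and 11.3% in WT 2) and the most globin and other blood transcripts (3.37% in KO 4 and 1.46% in WT 2); the part of these in the shares was not tested. WT 2 was lowest of its genotype for 40.9% of the tested genes, against 31.3% of all rows. Of the other marker lists, 1 of 5 thick limb genes, 2 of 5 endothelial genes (Plvap at 1.03 and Pecam1 at 0.83) and none of 6 blood genes rose (limma; 5 blood genes higher at an unadjusted p under 0.05), and 1 of 5 macrophage genes fell. Over all rows 6.16% were higher and 8.2% lower. Thick limb genes summed to 0.208% to 0.275% of adjusted reads in KO and 0.162% to 0.327% in WT, endothelial genes to 0.0246% to 0.0423% in KO and 0.0195% to 0.0247% in WT, and macrophage genes to 0.00838% to 0.0106% in KO and 0.0104% to 0.0115% in WT. Blood genes summed to 0.85% to 3.37% in KO and 0.586% to 1.46% in WT.

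Partners of the chaperones, which the symbol rule leaves out except for Hspbp1, are described list by list. None of them rose, against 6.16% of all rows, and the genes that fell are counted per list below. Rbm3, which rose, belongs to a separate list of temperature-responsive genes. Hsf1, the master regulator of the heat shock response, had log2 values of 6.82, 6.66, 7.23, 6.63 and 6.81 in Bmal1 KO, against 6.96, 6.86, 6.95 and 6.31 in WT, WT 4 being lowest. Its genotypes overlapped (log2 difference 0.06, SE 0.19, adjusted p = 0.877), and the difference was -0.09 without WT 4 and -0.01 with quantile normalization. Of 6 heat shock factor genes 4 were tested, and Hsf2bp, a binding partner of Hsf2 known from meiosis, fell by 0.87 (SE 0.18, adjusted p = 0.00298). That was 25% of those tested, against 8.2% of all rows. Of 14 co-chaperones of Hsp90 2 fell, or 14.3% against 8.2% of all rows, with a median log2 difference of -0.178. Fkbp5, the immunophilin that glucocorticoids induce, had 8.47, 8.67, 8.53, 7.67 and 9.07 in Bmal1 KO, against 9.33, 9.34, 10.01 and 9.84 in WT (log2 difference -1.15, SE 0.21, adjusted p = 0.00131), and every KO library lay below every WT library. Trap1, the mitochondrial Hsp90, had 11.29, 11.02, 11.35, 10.97 and 11.21 in Bmal1 KO, against 11.59, 11.82, 11.77 and 11.45 in WT (log2 difference -0.49, SE 0.11, adjusted p = 0.00553), likewise with no overlap.

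Of 13 genes for nucleotide exchange and for the Hsp70 partners Hip and CHIP, 1 fell, or 7.69% against 8.2% of all rows, with a median of -0.0796. It was Sil1, the exchange factor of BiP (log2 difference -0.51, SE 0.11, adjusted p = 0.00316). This list also holds Hspbp1. Among 8 subunits of the chaperonin TRiC none was called by limma, with 1 lower at an unadjusted p under 0.05 (median -0.125). That was Cct3, at -0.30 (adjusted p = 0.0511, with 0.0406 without WT 2 and 0.0449 with x of at least 50 in 4 or more libraries). Of 13 other ER folding genes, which share Sil1 and Hyou1 with the exchange list, 4 fell, or 30.8% against 8.2% of all rows (median -0.258). Besides Sil1 these were P4hb, the disulfide isomerase (-0.51, SE 0.10, adjusted p = 0.00153), Sec63, a J protein of the translocon (-0.51, SE 0.12, adjusted p = 0.00820), and calreticulin, Calr (-0.37, SE 0.10, adjusted p = 0.0173). Calr did not pass on leaving out KO 4 or WT 3 (adjusted p = 0.0554 without KO 4 and 0.0557 without WT 3), nor at an adjusted p of 0.0713 after quantile normalization, 0.0769 with the library total, 0.0861 with the total without Rn45s, 0.0891 with Rn45s as a covariate and 0.0522 without a variance trend. Sec63 did not pass at an adjusted p of 0.0524 with Rn45s as a covariate and 0.0512 without a variance trend. P4hb, Sec63 and Calr had mean log2 values of at least 10, a level at which 18.4% of rows were lower.

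Of 4 temperature-responsive RNA-binding genes, 1 was called, or 25% against 14.4% of all rows. At an unadjusted p under 0.05 (limma), 1 was higher and 1 lower. Rbm3, which cold induces, had log2 values of 8.52, 8.15, 8.41, 8.55 and 8.31 in Bmal1 KO, against 7.83, 8.20, 7.03 and 7.63 in WT and rose (log2 difference 0.71, SE 0.19, adjusted p = 0.0155), although WT 2 lay within the KO range and the call was lost without WT 3 (adjusted p = 0.0530) and at an adjusted p of 0.106 with Rn45s as a covariate and 0.0672 without a variance trend. Cirbp, the other gene that cold induces, had 8.26, 8.20, 9.14, 8.70 and 7.77 in Bmal1 KO, against 8.80, 9.16, 7.45 and 7.93 in WT, with no call (log2 difference 0.08, SE 0.29, adjusted p = 0.901). The Cirbp difference was -0.22 without WT 3 and -0.30 with Rn45s as a covariate. Srsf5 went the other way from Rbm3, with no call (log2 difference -0.45, SE 0.15, adjusted p = 0.0535), and 4 KO libraries lay below all WT libraries. Sfpq (0.15) also had no call.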

How the data were processed

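Libraries were made with the Lexogen QuantSeq kit from 500 ng of Trizol-extracted total RNA, per the labels' protocols. Bowtie2, bedtools and the build mm10 are listed in the submitters' processing notes; the sources used here do not give the normalization, annotation, strand setting or handling of shared reads. The deposited tables, 1 per library, hold log2(x + 1) of reads that the authors had scaled to similar library sizes; they are not counts. Rows with x of at least 10 in 4 or more libraries entered limma 3.58.1 (R 4.3.3), with genotype as the only term, a variance trend, two-sided tests, Benjamini-Hochberg adjustment over 13481 rows and a threshold of 0.05. The model was tested on simulated data. Fold changes, on the log2(x + 1) scale, understate the change of low genes. The number of libraries, 5 and 4, limits the precision. The symbol rule, classes and lists were chosen with earlier results of these data known. Genes named by rule are those called, the 2 most abundant of each class except the unassigned, Hspa1a, Hspa1b, Arntl, the genes nearest the filter and up to 3 partners of each list by adjusted p; all others, markers included, were chosen after their values were seen. Alternatives covered filters, the pseudocount, scalings, Rn45s as a covariate, variance settings, each library left out and a replicate block. Positions are from GENCODE M21 (GRCm38, the assembly of mm10) and promoters from RefSeq GRCm38.p6.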

Additional observations from a re-analysis of the deposited data

Results flagged for a closer look

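In 6 cases a single library lay far from its nearest neighbour relative to the spread of its genotype. They were found among 102 groups of libraries examined, where chance marks about 1 in 20. Hspa1b in KO 5 was at 9.74 (next KO library 8.30); the same library was highest for Hspa1a and Hspb1. Hspd1 in KO 1 was at 12.45 (next 12.23), Hspe1 in KO 2 at 11.76 (next 11.48) and Hspb11 in KO 4 at 7.76 (next 7.16), each above the other KO libraries. Calr in KO 4 was at 12.23 (next 12.47), below the other KO libraries, and Hsf1 in WT 4 at 6.31 (next 6.86), below the other WT libraries.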

How the results depend on the processing

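Against the 5 genes higher and 11 lower in KO, the lower count moved to 7 with no filter on low values, 5 with quantile normalization, 4 with the library total, 3 with the total without Rn45s, 6 with the upper quartile, 3 with Rn45s as a covariate, and 4 without a variance trend. Lower calls then made up 10% of the tested genes and 5.48% of all rows with no filter, and 4.55% and 5% with the covariate. They made up 6.06% and 5.44% without a variance trend. The higher count moved to 8 with the total without Rn45s (12.1%, against 9.44% of all rows) and 2 without a variance trend (3.03% against 4.29%). Leaving out 1 library gave 4 to 6 higher and 4 to 13 lower. Both counts stayed within 1.5 times under the other alternatives, apart from the replicate block, with 6 higher and 5 lower. Lower calls were then 7.58% of the tested genes and 7.37% of all rows. The block took away the calls of Dnajb11 (adjusted p = 0.0983), Dnajb12 (0.0768), Dnajc13 (0.0617), Dnajc2 (0.0633), Hsp90aa1 (0.0909) and Hspa4 (0.102). Replicate numbers are not paired by the labels, same-numbered libraries deviated together at r = -0.00701 to 0.151 across rows, and 3 of 8 libraries correlated best with their own number. Over 51 named genes and 21 alternatives, 899 of 1068 values kept direction and side of the threshold, 150 lost and 11 gained the call, and 8 reversed, none of them called. These were Hspa8 at 0.031 and Hsf1 at -0.0106 with quantile normalization, Cirbp at -0.295 with Rn45s as a covariate, Hsf1 without KO 3 or WT 4, and Cirbp without KO 3, WT 3 or WT 4; the cause was not tested. With each library left out in turn, the Hsf1 difference ran from -0.0908 to 0.126 and that of Cirbp from -0.219 to 0.349. The raw depth is unknown, so no counting error is given.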
